A study of Mus musculus with 8 samples.

Results

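Among the single nuclei profiled from mouse brain, a small set of neurons carried Slc17a6, the vesicular glutamate transporter of subcortical excitatory neurons, with little or no Slc17a7, the transporter of cortical ones. These nuclei, called Slc17a6 neurons here, were chosen from the nuclei that the authors had labelled neurons by 3 limits on unique molecular identifiers (UMIs, counted transcripts). A nucleus had at least 3 Slc17a6 UMIs, at most 1 Slc17a7 UMI and at most 1 UMI of Gad1 and Gad2 together, which encode the enzymes of GABA synthesis. The limits kept 219 of 45141 neurons (0.485%) and of 61949 nuclei in all. The nuclei came from brain hemispheres, dissected free of cerebellum and olfactory bulb, of C57BL6/J mice aged 6 months. Each of the 4 genotypes gave 2 libraries. WT mice carried neither change. Cnp-/- mice lack the myelin enzyme CNPase throughout the body, 5xFAD mice express mutant human transgenes, APP among them, from a Thy1 promoter, which is active mainly in neurons, and Cnp-/-;5xFAD mice carry both. The study states elsewhere that tissue of 2 animals was pooled for a single-cell replicate and that Cnp-/- crosses were analysed in females. The library was taken as the replicate (n = 2 per genotype).

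Vesicular glutamate transporters fill synaptic vesicles with glutamate, so the transporter gene a neuron uses marks it as excitatory. Slc17a7 serves most pyramidal neurons of cortex and hippocampus, whereas Slc17a6 serves relay neurons of the thalamus and excitatory neurons of the habenula, hypothalamus, midbrain and brainstem. The transcription factor Tcf7l2 is kept on in adult thalamic, habenular and some midbrain neurons, and factors of the Ebf and Lhx families mark further subcortical groups. Slc17a6 lies on chromosome 7 (51622006 to 51671119, GRCm38, plus strand), Tcf7l2 on chromosome 19 (55741820 to 55933654, plus strand) and Cnp on chromosome 11 (100574904 to 100591729, plus strand).

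The targeted gene matched the labels. In mature oligodendrocytes, which make CNPase, Cnp stood at 219 to 321 CPM (UMI counts of a gene scaled to the same total of UMIs in each library and class) in the 4 libraries with intact Cnp and at 23.1 to 32.8 CPM in the 4 libraries without it. The 8 libraries held 6801 to 8824 nuclei and 4463 to 6838 neurons. A total of 909 nuclei had a barcode that also occurred in another library. Of the Slc17a6 neurons, 3 did, and 0 shared a barcode with another Slc17a6 neuron.

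The Slc17a6 neurons were spread very unevenly over the libraries. WT replicate 1 held 51 of them and WT replicate 2 held 137. The Cnp-/- libraries held 1 and 3, the 5xFAD libraries 10 and 3, and the Cnp-/-;5xFAD libraries 12 and 2. Thus 188 of 219 (85.8%) came from WT libraries, which gave 25.8% of all neurons, 24.5% of Slc17a7 neurons and 32.9% of Gad neurons. Slc17a7 neurons (11512 nuclei with at least 3 Slc17a7 UMIs and at most 1 of Slc17a6 and of Gad1 and Gad2 together) and Gad neurons (8237 nuclei chosen in the same way for Gad1 and Gad2) served as the 2 reference classes.

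As a share of the neurons of a library, Slc17a6 neurons made up 0.833% (exact 95% binomial interval 0.621 to 1.09) and 2.47% (2.08 to 2.91) in the WT replicates. The share was 0.0170% (0.000429 to 0.0944) and 0.0439% (0.00905 to 0.128) in the Cnp-/- replicates. It was 0.224% (0.107 to 0.412) and 0.0583% (0.0120 to 0.170) in the 5xFAD replicates, and 0.242% (0.125 to 0.423) and 0.0324% (0.00392 to 0.117) in the Cnp-/-;5xFAD replicates. Both WT intervals lay above all 6 others, and the WT replicates also differed from each other. Intervals and floors given here cover counting error only, not the difference between dissections or animals.

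**Figure D1:**
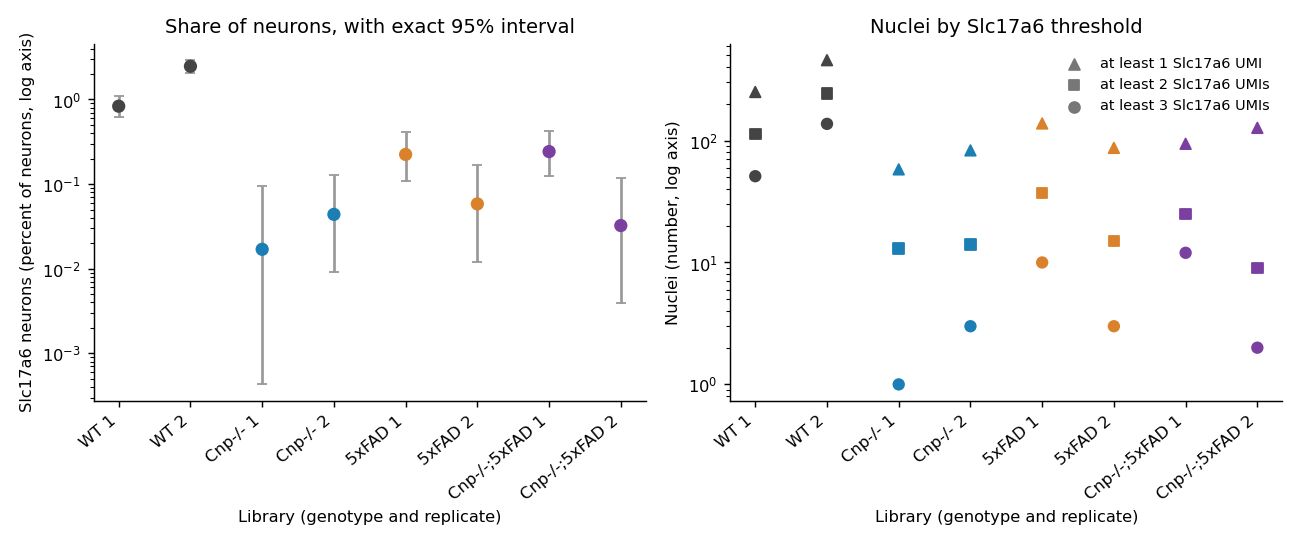
Left, Slc17a6 neurons as a percentage of the neurons of each library on a log axis, with exact 95% binomial intervals. Right, number of nuclei per library on a log axis when the rule asks for at least 1, 2 or 3 Slc17a6 UMIs. The WT replicates lie highest at 0.833% and 2.47%, and the other 6 libraries lie between 0.0170% and 0.242%.

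The test of the share by genotype factor did not pass, and it could not settle whether the share differed. With 4 libraries against 4, even a full separation of the groups in a single comparison would not have passed after adjustment over 4 comparisons. The 4 libraries without Cnp averaged 0.0839% ± 0.106 (SD, n = 4) and the 4 with Cnp 0.896% ± 1.10 (n = 4), a difference of -0.813 percentage points (exact permutation test over 70 relabellings, two-sided, p = 0.114, adjusted over 4 share comparisons p = 0.457). The 5xFAD libraries averaged 0.139% ± 0.109 (n = 4) and the libraries without the transgenes 0.841% ± 1.15 (n = 4), a difference of -0.702 points (exact permutation p = 0.4, adjusted p = 0.648). In both comparisons the groups overlapped. How much of the difference between libraries came from the cut of the hemispheres was not tested.

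The count depended on the threshold and on depth. With at least 1 Slc17a6 UMI the rule kept 1293 neurons, 54.6% of them from WT, and with at least 2 UMIs it kept 470, 76.0% from WT. With at least 4 UMIs it kept 119, 89.9% from WT. Single UMIs were also found in cells that should lack the gene, at 0.0832% of astrocytes (median 2636 UMIs) and 0.360% of endothelial nuclei (median 3598), against 7.501% of neurons (median 9105). All 443 nuclei with at least 3 Slc17a6 UMIs carried the label neuron. Of these, 181 were left out for their Slc17a7 and 135 for their Gad UMIs, 92 of them for both. When each neuron was thinned to 5000 UMIs and the 296 to 2500 shallower neurons of each library were left out, the Slc17a6 neurons numbered 14 and 41 in WT, 0 and 2 in Cnp-/-, 2 and 0 in 5xFAD, and 3 and 1 in Cnp-/-;5xFAD, so the WT libraries still held most.

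Within the set, 190 nuclei had no Slc17a7 UMI and 193 had no Gad UMI. The median nucleus had 4 Slc17a6 UMIs (highest 13), 11435 UMIs and 4261 detected genes. That depth was close to Slc17a7 neurons (median 12641 UMIs) and above Gad neurons (median 7723). Nuclei just inside the limit differed from those just outside it. The 100 nuclei with 3 Slc17a6 UMIs had 902 CPM of Zfhx3, whereas the 251 nuclei with 2 UMIs had 743 CPM. The 119 nuclei with 4 or more had 1187 CPM. In these nuclei pooled over libraries, the level of the homeobox factor Zfhx3 thus rose with the Slc17a6 count. The share of nuclei from WT rose as well, at 67.3% with 2 UMIs, 81% with 3 and 89.9% with 4 or more. The part of this mix of libraries was not tested.

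In the clustering of the authors, 159 Slc17a6 neurons (72.6%) belonged to cluster 11 and 28 (12.8%) to cluster 25, and the other 32 were scattered over 9 clusters. Neither cluster is given a name here. Cluster 11 itself was uneven: its share of neurons was 7.48% and 13.0% in WT, 2.37% and 0.687% in Cnp-/-, 2.51% and 4.47% in 5xFAD, and 2.04% and 0.194% in Cnp-/-;5xFAD. Slc17a6 averaged over cluster 11 was 83.6 and 113 CPM in WT, 7.59 and 3.14 CPM in Cnp-/-, 66.7 and 23.6 CPM in 5xFAD, and 69.0 and 14.7 CPM in Cnp-/-;5xFAD. Cluster 11 thus held fewer nuclei and less Slc17a6 outside WT. Other neuron clusters were uneven over the libraries too. Cluster 7 made up 19.0% of neurons in WT replicate 1, 0.811% in WT replicate 2, 0.0339% in Cnp-/- replicate 1 and 17.3% in Cnp-/- replicate 2.

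Cluster 25 stood apart. Of its 864 nuclei, 717 (83.0%) came from WT replicate 2. Its Slc17a6 neurons had 89.2 CPM of Gabra6, a GABA-A receptor subunit of cerebellar granule cells, against 7.78 CPM in the Slc17a6 neurons of cluster 11. They also had more of the myelin gene Mbp (481 against 31.6 CPM). Over all Slc17a6 neurons, Gabra6 had 61 UMIs in 25 nuclei, each of them in WT replicate 2, although cerebellum had been removed. All 8 of 8 cerebellar granule genes, a list added after the data were seen, had a UMI in Slc17a6 neurons, with a summed level of 0 to 88.7 CPM across libraries. In Slc17a7 neurons the same sum was 2.59 to 103 CPM, so the classes overlapped. A UMI of Gabra6, Fat2, Cbln1 or Cbln3 was found in 30 Slc17a6 neurons, 13 of them in cluster 25. The part of residual cerebellar tissue in the high count of WT replicate 2 was not tested. Without cluster 25 that library held 118 Slc17a6 neurons (2.44% of its neurons outside cluster 25) and WT replicate 1 held 46 (0.756% of its neurons outside cluster 25).

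Tcf7l2 divided the Slc17a6 neurons. At least 3 Tcf7l2 UMIs were found in 109 of 219 nuclei and none in 91, and only 16 nuclei lay at 2 or 3 UMIs. The Tcf7l2 nuclei numbered 32 of 51 and 67 of 137 in WT, 2 of 10 and 0 of 3 in 5xFAD, and 8 of 12 and 0 of 2 in Cnp-/-;5xFAD. Neither Cnp-/- library had one. The 4 libraries without such a nucleus held 9 Slc17a6 neurons together, and 0 of 9 allows a share of up to 33.3%. The share of Tcf7l2 nuclei averaged 16.7% ± 33.3 (n = 4) without Cnp and 32.9% ± 28.3 (n = 4) with it (exact permutation p = 0.486, adjusted p = 0.648). It averaged 21.7% ± 31.4 (n = 4) in 5xFAD libraries and 27.9% ± 32.7 (n = 4) in the others (exact permutation p = 1, adjusted p = 1). Both differences were smaller than the spread between libraries. The test gave each library the same weight whatever its number of nuclei, and could not settle whether this share differed.

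Ebf1, Ebf2 and Ebf3, transcription factors of early neuronal differentiation that persist in some subcortical neurons, divided the nuclei in another way. Together they reached at least 3 UMIs in 92 nuclei, of which 40 also had Tcf7l2. The remaining nuclei were 69 with Tcf7l2 alone, 52 with Ebf alone and 58 with neither. These groups were drawn after the data were seen and are a description of the nuclei. Ebf1 (chromosome 11, 44617317 to 45008091, plus strand) was at 776 CPM in the nuclei with Ebf alone and 18.5 CPM in those with Tcf7l2 alone, and Tcf7l2 was at 15.9 and 740 CPM.

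Of the other regulators, Tfap2d, an AP-2 factor of midbrain neurons, was high in the nuclei with Tcf7l2, at 237 CPM with Tcf7l2 alone and 180 CPM with both, but at 14.5 CPM with Ebf alone and 12.5 CPM with neither. Of the 96 nuclei with a Tfap2d UMI, 86 had at least 3 Tcf7l2 UMIs. Ebf2 was at 301 CPM with Ebf alone, where the limit used it. Bnc2, a zinc finger factor, was highest with neither, at 229 CPM, and was at 129 CPM with Ebf alone, 36.6 CPM with both and 27.2 CPM with Tcf7l2 alone. Zfhx3 crossed the division, at 1571 CPM with Tcf7l2 alone, 1049 with both, 758 with Ebf alone and 814 with neither. Lhx9, a LIM homeobox factor, also crossed it and had a UMI in 24 nuclei with both, 47 with Tcf7l2 alone, 13 with Ebf alone and 22 with neither.

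The groups were shared unevenly among libraries. In WT replicate 1 there were 13 nuclei with both, 19 with Tcf7l2 alone, 7 with Ebf alone and 12 with neither. In WT replicate 2 the numbers were 24, 43, 44 and 26. Of the 31 nuclei outside WT, 20 had neither Tcf7l2 nor Ebf.

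**Figure D2:**
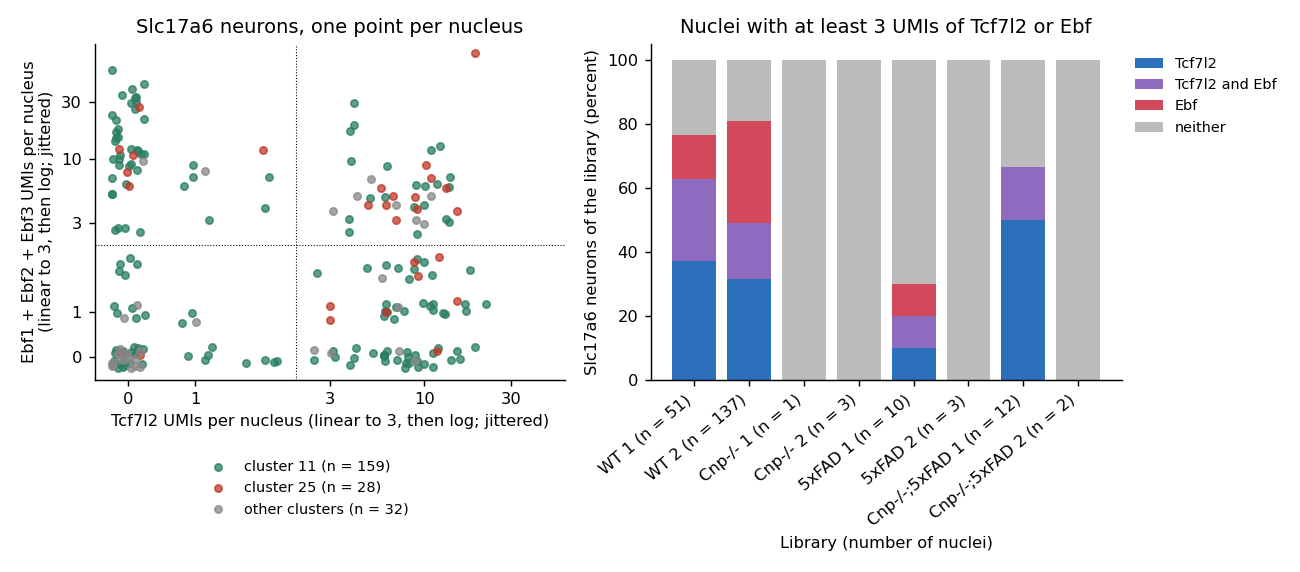
Left, UMIs of Tcf7l2 against UMIs of Ebf1, Ebf2 and Ebf3 together in each of the 219 Slc17a6 neurons, on axes linear up to 3 and logarithmic above, coloured by cluster of the authors, with dotted lines at the limit of 3 UMIs. Right, percentage of the Slc17a6 neurons of each library with at least 3 UMIs of Tcf7l2, Ebf, both or neither. Tcf7l2 nuclei made up 62.7% and 48.9% in WT, and the 4 libraries with 1 to 3 nuclei held only nuclei with neither.

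The profile of the Slc17a6 neurons was then set against Slc17a7 neurons of the same libraries. Because the rule chose the nuclei on this contrast, the values are a description with no test. The Cnp-/-, 5xFAD replicate 2 and Cnp-/-;5xFAD replicate 2 libraries, with 1 to 3 nuclei, gave 8023 to 22153 UMIs each, against 107767 to 1927429 UMIs in the other 4. In the 4 libraries with at least 10 Slc17a6 neurons, 38 of 4293 genes (0.885%) were at least 4-fold higher than in Slc17a7 neurons in each library and 6 (0.14%) at least 4-fold lower. They include Slc17a6 and Slc17a7, which the rule itself fixed.

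Several transcription factors were among the higher genes. Zfhx3 was at 1147, 1086, 1206 and 876 CPM in WT replicates 1 and 2, 5xFAD replicate 1 and Cnp-/-;5xFAD replicate 1, against 10.5 to 31.1 CPM across the 8 libraries of Slc17a7 neurons and 29.96 to 242 CPM in Gad neurons. Tcf7l2 was at 451, 312, 195 and 416 CPM in the same order, against 2.31 to 13.8 CPM and 12.8 to 65.5 CPM. In these 4 libraries neither gene overlapped with either reference class. In the other 4 libraries Zfhx3 was at 0 in both Cnp-/- libraries, 162 CPM in Cnp-/-;5xFAD replicate 2 and 587 CPM in 5xFAD replicate 2, the last from 13 UMIs in 1 of its 3 nuclei. Tcf7l2 was at 0 in all 4, where 3 UMIs correspond to 135 to 374 CPM, so in some of them a level such as the 195 CPM of 5xFAD replicate 1 was not detectable.

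Among further factors, named after their values were seen, Ebf1 was at 208, 323, 27.8 and 12.8 CPM in the 4 larger libraries and Ebf3 at 118, 101, 55.7 and 44.7 CPM. Ebf3 stayed at 0.344 to 2.14 CPM in Slc17a7 neurons, whereas Ebf1 reached 38.0 CPM in a Slc17a7 library and overlapped with them. Lhx9 was at 115, 65.4, 74.2 and 25.6 CPM against at most 2.67 CPM in Slc17a7 neurons and 3.16 CPM in Gad neurons. Tfap2d was at 142, 112, 55.7 and 205 CPM against at most 14.98 and 6.43 CPM. Lhx9, Tfap2d and Ebf3 were thus low in both reference classes.

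Genes of synaptic release and excitability were also among the 38. Syt2, the calcium sensor of fast release in subcortical and hindbrain terminals, was at 101, 201, 121 and 63.9 CPM in the 4 larger libraries, against 4.65 to 14.8 CPM in Slc17a7 neurons. Unc13c, a vesicle priming factor abundant in cerebellar granule cells, was at 369, 523, 585 and 300 CPM against 21.8 to 111 CPM. Glra1, a glycine receptor subunit named after its values were seen, was at 39.99, 126, 37.1 and 44.7 CPM against 0.933 to 2.37 CPM. Klhl1, an actin-binding modulator of T-type calcium channels, was at 294, 254, 418 and 134 CPM against 12.9 to 28.3 CPM, and was likewise named after its values were seen. These 4 genes were higher in each of the 4 libraries than in any library of Slc17a7 neurons.

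By the ranking over all 8 libraries, the 12 highest genes were Zfhx3, Ankrd55, 6330411D24Rik, Baiap3, Tcf7l2, Tmem132c, Nek7, Syt2, Stk32b, Zfp521, Btbd11 and Vwc2, with median log2 ratios of 5.17 to 3.35. That ranking adds 0.5 to each count, which lifts a gene at 0 in a library of 1 nucleus, so it says little of the 4 small libraries. Pooled over all nuclei, the noncoding RNA 6330411D24Rik was at 388 CPM against 6.78 CPM in Slc17a7 neurons and 180 CPM in Gad neurons. Btbd11, a synaptic protein of inhibitory neurons, was at 139 CPM against 7.70 and 201 CPM. The secreted protein gene Vwc2 was at 159 CPM against 9.56 and 134 CPM. Several of the leading genes were therefore also high in Gad neurons.

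The lowest genes included several that cortical neurons use. Pde1a, a calmodulin-dependent phosphodiesterase, had 151 CPM against 911 CPM in Slc17a7 neurons (median log2 ratio -2.26), and Lmo4, a LIM cofactor of cortical neurons, 30.6 against 184 CPM (-1.91). Phactr1, a regulator of actin and phosphatase, had 748 against 2984 CPM (-1.35), and Gria3, an AMPA receptor subunit, 491 against 1057 CPM (-1.27). The other 8 of the 12 lowest were Gm28376, Fhl2, Gm49678, Scube1, Nwd2, Stum, Trpc6 and Mical2. With the same amount added to each count, all 12 were lower in each of the 8 libraries, and 81 of 4411 genes at 50 CPM or more were. A gene at 0 in a library of few nuclei can be scored as lower there although it could not have been detected. Stum and Fhl2 were at 0 in each of the small libraries, so their sign there says little. Among the 6 genes at least 4-fold lower in the larger libraries, named after their values were seen, were Slc30a3, the zinc transporter of cortical glutamatergic vesicles (5.90 against 53.3 CPM), the synaptic pentraxin receptor Nptxr (5.90 against 63.4 CPM) and the inositol kinase Itpka of dendritic spines (12.8 against 91.3 CPM).

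**Figure D3:**
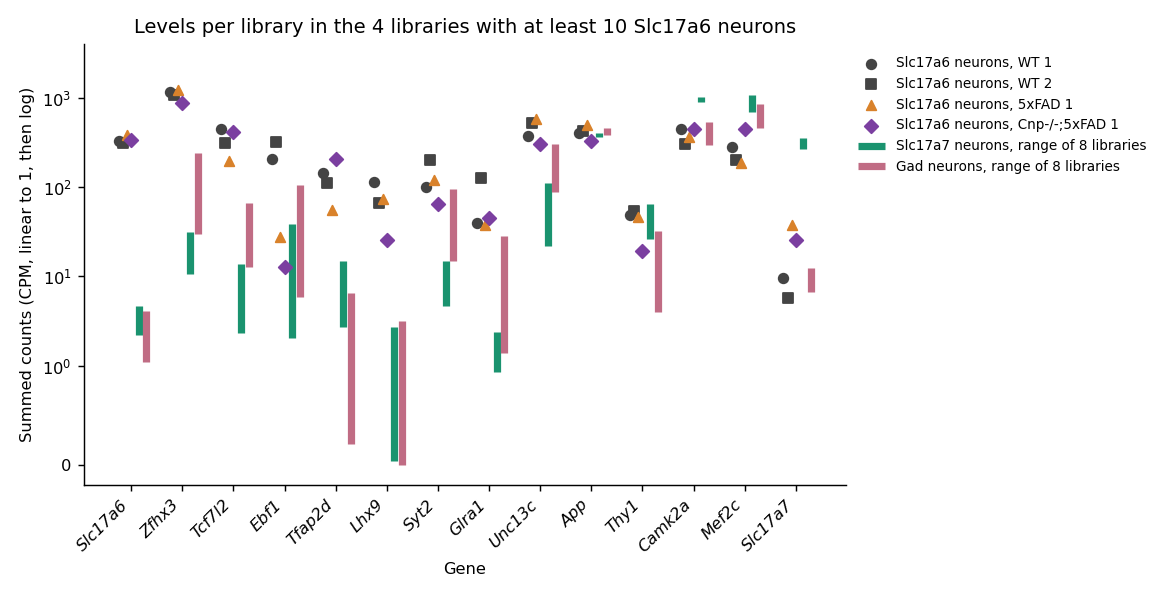
Summed level of 14 genes (CPM, linear to 1 and logarithmic above) in the 4 libraries with at least 10 Slc17a6 neurons, one symbol per library, beside the range over 8 libraries in Slc17a7 neurons (green) and Gad neurons (pink). Zfhx3 at 876 to 1206 CPM lies above both reference classes, App overlaps with both, and Slc17a7 lies below Slc17a7 neurons.

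The label subcortical was checked against marker lists. Of 11 thalamic markers, 10 had a UMI and 10 were higher than in Slc17a7 neurons, with a summed level of 4601 against 1377 CPM. Most of that sum came from the nuclear receptor Rora (2429 against 929 CPM), Zfhx3 and the axon guidance protein Ntng1 (600 against 342 CPM). Markers that define thalamic relay nuclei more narrowly were scarce. Gbx2, the homeobox factor of the developing thalamus, was at 0 in all 219 nuclei, which allows up to 1.04 CPM, and the kinase gene Prkcd had 5 UMIs in 4 nuclei. Rgs16 had 13 UMIs in 9 nuclei, Calb2 (calretinin) 36 in 30 and Lef1 120 in 27.

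Markers of the midbrain and subthalamic nucleus gave the clearer contrast. Of 11, 10 had a UMI and were higher than in Slc17a7 neurons, with a summed level of 316 against 11.6 CPM. Lhx9, Tfap2d and Ebf2 carried that sum. Ebf2 had 252 UMIs in 35 nuclei. Lmx1a (33 UMIs in 7 nuclei), Lmx1b (26 in 13), En1 (19 in 17) and En2 (16 in 15), factors of midbrain and hindbrain neurons, were found in a minority. Barhl2, Pou4f2 and Foxa1 had 5 UMIs or fewer each.

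Markers of other subcortical sources gave few UMIs. Of 11 hypothalamic and mammillary markers, 6 were at 0 and the other 5 had 1 to 4 UMIs each. Of 7 habenular markers, the peptide gene Tac2 and the receptor gene Gpr151 were at 0, and Nwd2, which cortical neurons also express, made up most of the sum of 129.5 CPM. Of 9 genes of monoamine and acetylcholine neurons, Slc6a3 and Slc6a4 were at 0, and Chat, the acetylcholine-synthesising enzyme, had 27 UMIs in 13 nuclei, 10 of them in WT replicate 2. Of these 9 genes 6 were higher than in Slc17a7 neurons, with a sum of 31.2 against 10.7 CPM. All 6 Cajal-Retzius markers were higher, with a sum of 172 against 93.5 CPM and 319 CPM in Gad neurons. Among them Trp73 had 8 UMIs and Reln was at 150 CPM, between Slc17a7 neurons (89.7) and Gad neurons (291).

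The cortical and hippocampal list was low in 5 of the 8 libraries. Of its 12 genes, 0 were higher than in Slc17a7 neurons, and the sum was 1099 against 2802 CPM. Per library the sum was 1356 and 928 CPM in WT and 1095 and 1681 CPM in the larger 5xFAD and Cnp-/-;5xFAD libraries. It was 4238 and 2439 CPM in Cnp-/-, 587 CPM in 5xFAD replicate 2 and 3897 CPM in Cnp-/-;5xFAD replicate 2. In 3 of the 4 small libraries, then, the nuclei chosen by the rule carried cortical markers at the level of Slc17a7 neurons and no Tcf7l2, and the label subcortical does not describe them.

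Markers of other classes were also present. Of 9 inhibitory markers, 6 were higher than in Slc17a7 neurons, with a sum of 104 against 39.0 CPM and 406 CPM in Gad neurons. Dlx5 and Dlx6 were at 0 and Slc32a1, the vesicular GABA transporter, had 2 UMIs. The peptide gene Sst had 62 UMIs, 57 of them in WT replicate 2. All 6 oligodendrocyte genes were higher than in Slc17a7 neurons, and their sum was 343 CPM against 181 CPM in Slc17a7 neurons and 391 CPM in Gad neurons. It ranged from 45.1 to 891 CPM across libraries, with the highest value in 5xFAD replicate 1. The sums were 64.6 against 18.8 CPM for 5 astrocyte genes, all 5 of them higher, 76.7 against 57.0 CPM for 5 microglial genes, 17.0 against 7.93 CPM for 3 precursor genes and 2.78 against 0.771 CPM for 3 endothelial genes. In Gad neurons these sums were higher still, at 140, 91.5, 50.9 and 8.28 CPM. The part of these genes in the results that follow was not tested.

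Gene groups of neuronal function were compared in the same way. Over all 27235 genes with a UMI in either class, 48.4% were higher in Slc17a6 neurons pooled over libraries, and over the 4411 genes at 50 CPM or more 59.7% were. Transcripts of the amyloid precursor, its processing enzymes and Thy1 were at a like level: 8 of 17 were higher, and the sum was 1575 CPM in Slc17a6 neurons, 1596 in Slc17a7 neurons and 1529 in Gad neurons. App, the amyloid precursor gene, was at 406, 424, 501 and 326 CPM in the 4 larger libraries against 360 to 403 CPM in Slc17a7 neurons, so the classes overlapped. Thy1, whose promoter drives the 5xFAD transgenes, was at 48.0, 53.4, 46.4 and 19.2 CPM against 26.0 to 65.0 CPM. Sorl1, a sorting receptor of the amyloid precursor, was lower at 104 against 160 CPM over all nuclei.

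Synaptic genes differed in direction by member, while the sums of release genes and of glutamate receptor genes were lower in the larger libraries. Of 21 genes of vesicular glutamate transport and release, 10 were higher and the sum was 6716 against 8631 CPM. In the 4 larger libraries the sum was 6550, 6636, 7024 and 7850 CPM, below the 8381 to 8879 CPM across libraries of Slc17a7 neurons. Syt1, the common calcium sensor of release, was at 1763 against 3382 CPM and was lower in 8 of 8 libraries, opposite to Syt2. Of 23 glutamate receptor genes, 9 were higher. Their sum was 14456, 13370, 10569 and 14095 CPM in the same 4 libraries, below 15039 to 15827 CPM in Slc17a7 neurons. The kainate receptor subunits Grik2 (1568 against 797) and Grik1 (229 against 51.6) were higher. The NMDA receptor subunits Grin2b (583 against 1610) and Grin2a (674 against 1436) were lower. Of 12 GABA-A receptor genes, 6 were higher, with a sum of 3243 against 3486 CPM.

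Of 13 channels that set the firing mode, 10 were higher, including Kcnc2 (712 against 206 CPM) and Kcnc1 (131 against 50.6 CPM), Shaw-type potassium channels of fast-spiking neurons, whose levels in Gad neurons were 1052 and 140 CPM. Of 16 genes of the axon initial segment, node and paranode, 9 were higher. Cntnap2, which clusters potassium channels beside the node, was at 3811 against 1563 CPM, and the M-current channel Kcnq5 was lower at 704 against 1905 CPM. Of 13 immediate early genes only 1 was higher, and their sum was 95.8 against 166 CPM. Per library it was 102 and 83.0 CPM in WT, 0 and 143 in Cnp-/-, 102 and 135 in 5xFAD, and 205 and 244 in Cnp-/-;5xFAD, which overlapped with 96.1 to 207 CPM in Slc17a7 neurons. Of 15 genes of axon injury and integrated stress, 9 were higher, with the growth-associated protein gene Gap43 at 176 against 109 CPM. The 13 mitochondrial genome transcripts summed to 14.2 CPM.

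Genotype was tested on the summed profile of the Slc17a6 neurons of each library, to ask whether myelin defect, amyloid or both changed their transcripts. The nuclei compared lay in different clusters of the authors. Cluster 11 held 38 of 51 and 109 of 137 Slc17a6 neurons in WT, 0 of 1 and 0 of 3 in Cnp-/-, 5 of 10 and 3 of 3 in 5xFAD, and 4 of 12 and 0 of 2 in Cnp-/-;5xFAD. In these profiles a change of transcripts with genotype and a different mix of nuclei cannot be told apart. No gene passed the test in any of the 3 contrasts. Among 1948 genes with enough counts, edgeR called 0 (0%) for Cnp loss (both Cnp-/- genotypes against both with Cnp) at an adjusted p under 0.05, 0 (0%) for 5xFAD and 0 (0%) for their interaction. At an unadjusted p under 0.05 there were 212 (10.9%), 87 (4.47%) and 107 (5.49%). DESeq2 called 8, 0 and 0. In Slc17a7 neurons of the same libraries edgeR called 4, 0 and 0 of 18171 genes. With 1 to 3 nuclei in 4 of the 8 libraries, 3 UMIs in both Cnp-/- libraries together correspond to 104 CPM, so changes in most genes were not detectable at this depth.

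The 5 genes of smallest p for Cnp loss did not pass. Ankfn1, which encodes a protein with ankyrin repeats, was at 205 and 160 CPM in WT, 0 and 0 in Cnp-/-, 510 and 226 in 5xFAD, and 25.6 and 0 in Cnp-/-;5xFAD (edgeR adjusted p = 0.0523). Celf2, an RNA-binding splicing factor, was at 1951 and 1131 CPM in WT, 7603 and 5787 in Cnp-/-, 1178 and 542 in 5xFAD, and 3228 and 2517 in Cnp-/-;5xFAD (log2 fold change 1.71 ± 0.376 SE, edgeR adjusted p = 0.122). The 4 libraries without Cnp were all above the 4 with it. In Slc17a7 neurons Celf2 was at 6982 to 8004 CPM, a level that the 2 Cnp-/- libraries of Slc17a6 neurons came near. The others were the serotonin receptor gene Htr2c, the contactin-associated gene Cntnap5c and Zfhx3 (each edgeR adjusted p = 0.122), all with 0 UMIs in both Cnp-/- libraries.

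For 5xFAD the 5 genes of smallest p were Cdh13, Cadps2, Kctd8, Cntnap5c and Zfhx3, with edgeR adjusted p of 0.71 to 0.937. Cdh13, a cadherin anchored in the membrane by a lipid, was at 723 and 315 CPM in WT, 1745 and 861 in Cnp-/-, 111 and 45.1 in 5xFAD, and 326 and 0 in Cnp-/-;5xFAD. The groups overlapped. For the interaction they were St6galnac5, Thsd7a, Zfhx3, Gria4 and Zfp804a (each edgeR adjusted p = 0.671).

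Of the 22 gene lists, 11 had no gene with enough counts for the test. In the other 11 lists 0 tested genes were called in each of the 3 contrasts. For Cnp loss, 4 of 11 thalamic genes could be tested, with a median log2 fold change of -2.83 against -0.13 over all genes, and 6 of 12 cortical and hippocampal genes, with a median of 1.22. Among those thalamic genes Zfhx3 (-6.12) and Tcf7l2 had 0 UMIs in both Cnp-/- libraries. The size of such a value depends on how the fit treats 0 and is no fold, which limits the thalamic median. Only genes with enough counts were tested, which these thalamic genes reached in the larger libraries. No conclusion is therefore drawn from that median. Rora was at -1.20 ± 0.371 (SE, edgeR adjusted p = 0.187) and Camk2a at 1.25 ± 0.377 (edgeR adjusted p = 0.179). Of the functional lists, 18 of 23 glutamate receptor genes (median 0.04), 13 of 16 axon initial segment and node genes (-0.08), 11 of 21 release genes (0.07), 7 of 12 GABA-A receptor genes (-0.38) and 3 of 17 amyloid genes (-0.60) were tested. App was at -0.52 ± 0.353 for Cnp loss (edgeR adjusted p = 0.637) and 0.02 ± 0.357 for 5xFAD (edgeR adjusted p = 0.999).

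Wider sets of nuclei were tested because so few Slc17a6 neurons came from outside WT, a choice made after the data were seen. With at least 1 Slc17a6 UMI and the same limits on Slc17a7 and Gad UMIs there were 1293 nuclei, 58 to 456 in each library. With Cnp loss, edgeR called 189 of 10353 genes (1.83%), 119 higher and 70 lower. Of the 12 genes of the cortical and hippocampal list 4 rose and 0 fell, among them Neurod6 (log2 fold change 1.39 ± 0.316 SE, edgeR adjusted p = 0.0487), Camk2a (0.77 ± 0.143, edgeR adjusted p = 0.0292) and Mef2c (0.95 ± 0.212, edgeR adjusted p = 0.0466). The median of that list was 0.84 against -0.01 over all genes tested. Of 23 glutamate receptor genes 2 rose, Grin2a (0.56) and Grin2b (0.52), and 0 fell. Of 21 release genes 2 rose, Syt1 (0.59) and the vesicle protein gene Sv2b (0.64), and 1 fell, the synapsin gene Syn3 (-0.76). Of 16 axon initial segment, node and paranode genes 2 rose, Kcnq5 (0.76) and the adhesion gene Nrcam (0.60), and Cntnap2 fell. Of 17 amyloid genes Sorl1 rose (0.52), of 12 GABA-A receptor genes Gabrg1 fell (-1.61) and of 13 firing mode channels Kcnc2 fell (-0.97). The 6 oligodendrocyte genes had a median of -1.30, and all 6 had an unadjusted p under 0.05 in edgeR, with 0 called. Their part was not tested. Ankfn1 (-1.44 ± 0.242, edgeR adjusted p = 0.0244), Htr2c (-1.14 ± 0.169, edgeR adjusted p = 0.019), Btbd11 (-2.74 ± 0.386, edgeR adjusted p = 0.0173) and Cntnap2 (-0.56 ± 0.114, edgeR adjusted p = 0.0395) fell. The share of these nuclei in cluster 11 differed between libraries, at 56.4% and 66.0% in WT, 10.3% of 58 and 0% of 83 nuclei in Cnp-/-, 21.7% and 20.7% in 5xFAD, and 25.5% of 94 and 0% of 127 nuclei in Cnp-/-;5xFAD. Its part in the change was not tested.

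In the same wider set edgeR called 0 of 10353 genes for 5xFAD (728 at an unadjusted p under 0.05, 7.03%) and 61 (0.589%) for the interaction, 10 higher and 51 lower. They included Rorb (2.65 ± 0.463, edgeR adjusted p = 0.0265), a factor of layer 4 cortical neurons, and Crym (-3.94 ± 0.622, edgeR adjusted p = 0.0185). In all nuclei of cluster 11, edgeR called 0 of 10833 genes in each of the 3 contrasts. Cluster 11 is a wider population: 159 of its 1819 nuclei (8.74%) were Slc17a6 neurons, and its level was 75.1 to 361 CPM of Gad1 and 124 to 295 CPM of Gad2 across libraries, against 361 and 335 CPM in Gad neurons. Values from cluster 11 are therefore given beside those of the Slc17a6 neurons and are not a repeat of them. At an unadjusted p under 0.05 there were 491 (4.53%) for Cnp loss, 252 (2.33%) for 5xFAD and 494 (4.56%) for the interaction.

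Whether a genotype effect was larger or smaller than in Slc17a7 neurons was tested with both classes in one model and the library as a block. For Cnp loss, 9 of 16339 genes (0.0551%) differed, 2 with a higher and 7 with a lower effect in Slc17a6 neurons. For 5xFAD, 3 genes (0.0184%) differed, 1 higher and 2 lower. At an unadjusted p under 0.05 there were 737 (4.51%) and 587 (3.59%), and the median over all genes was -0.38 and -0.19 on the log2 scale. Without the block edgeR called 0 and 0. For Cnp loss the 6 oligodendrocyte genes had a median difference of -2.17, 6 of 6 at an unadjusted p under 0.05, and the 12 cortical and hippocampal genes a median of 1.17, 5 of 12 at an unadjusted p under 0.05, with 0 called in either list. Their part was not tested.

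Among the genes with a lower effect of Cnp loss, Ankfn1 had the smallest p (log2 difference -4.23 ± 0.632 SE, edgeR adjusted p = 3.75e-07). With all nuclei of cluster 11, which held none of the Cnp-/- Slc17a6 neurons, the difference was 0.30 and was not called. Its level in Slc17a7 neurons stayed at 24.8 to 38.3 CPM in all libraries, while the Slc17a6 neurons with it numbered 23 and 56 in WT, 0 and 0 in Cnp-/-, 6 and 1 in 5xFAD, and 1 and 0 in Cnp-/-;5xFAD. Grik1 was at 307 and 216 CPM in WT, 0 and 47.8 in Cnp-/-, 121 and 1309 in 5xFAD, and 44.7 and 0 in Cnp-/-;5xFAD (difference -3.31 ± 0.568, edgeR adjusted p = 4.02e-05). Its 4 values without Cnp lay below the 4 with it. It was at 0 in Cnp-/- replicate 1 and Cnp-/-;5xFAD replicate 2, where 3 UMIs correspond to 374 and 244 CPM. The 121 CPM of 5xFAD replicate 1 could be missed there. Grik1 was the only member of the 22 lists called, 1 of 23 glutamate receptor genes. Its difference was not called and turned direction with all nuclei of cluster 11 (0.08). In Tcf7l2 nuclei only it was 11.43, but there Cnp-/-;5xFAD replicate 1 with 8 such nuclei was the only library without Cnp. Beside leaving out libraries, the difference of Grik1 was called in 3 of 10 other settings. Plcb4, a phospholipase downstream of metabotropic glutamate receptors, was at 422 and 389, 0 and 47.8, 761 and 181, and 141 and 0 CPM in the same order (difference -2.60 ± 0.522, edgeR adjusted p = 0.0017).

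Crym, which encodes the thyroid hormone-binding protein mu-crystallin, had a higher effect of Cnp loss (5.27 ± 0.911, edgeR adjusted p = 4.02e-05). It was at 4.80 and 3.63 CPM in WT, 249 and 287 in Cnp-/-, 0 and 0 in 5xFAD, and 19.2 and 0 in Cnp-/-;5xFAD, against 28.2 to 49.4 CPM in Slc17a7 neurons. These values rested on 12 nuclei, 4 of them in the Cnp-/- libraries, with 3 UMIs at most in a nucleus. Those 4 nuclei lay in clusters 14, 15 and 27, and with all nuclei of cluster 11 the difference was -0.08 and was not called. Beside leaving out libraries, Crym was called in 4 of 10 other settings. Gm42707 was called from 4 UMIs in 1 nucleus. Bnc2, which is in a list of cluster 11 transcription factors added after the data were seen, Sdc2, Sox2ot and Btbd11 had a lower effect of Cnp loss, with 44 UMIs of Bnc2 in 4 nuclei of 5xFAD replicate 1.

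For 5xFAD, Foxp2, a forkhead factor of cortical layer 6 and many subcortical neurons, was at 539 and 492 CPM in WT, 0 and 574 in Cnp-/-, 139 and 90.3 in 5xFAD, and 339 and 0 in Cnp-/-;5xFAD (difference -1.90 ± 0.403, edgeR adjusted p = 0.0133), and the groups overlapped. The 574 CPM came from 1 nucleus with 12 UMIs. The noncoding RNA 9530026P05Rik was found in 11 and 37 nuclei in WT, 1 and 0 in Cnp-/-, 0 and 0 in 5xFAD, and 1 and 0 in Cnp-/-;5xFAD. Its 1 nucleus in Cnp-/- held 9 UMIs. Zfp521, a zinc finger factor, was higher in both 5xFAD libraries (158 and 271 CPM) than in WT (22.4 and 107 CPM) but at 19.2 and 0 CPM in Cnp-/-;5xFAD and at 0 in Cnp-/-. In Slc17a7 neurons it was at 1.68 and 40.9 CPM in WT and 2.52 to 6.51 CPM in the other 6 libraries. Zfp521 lost its call without WT replicate 2, where the difference was 1.00 against 2.86 with all libraries, and without 5xFAD replicate 1. With all nuclei of cluster 11, 0 of the 12 genes were called, and the differences of Bnc2, Sdc2, Sox2ot, Gm42707 and 9530026P05Rik turned direction as well. Leaving out single libraries took away the call of each of the 12 genes at least once. Ankfn1 lost it without 5xFAD replicate 1, Grik1 without 5xFAD replicate 2 and Crym without Cnp-/- replicate 2, and Plcb4 and Foxp2 lost it without either WT replicate or without 5xFAD replicate 1, and Foxp2 also without 5xFAD replicate 2.

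**Figure D4:**
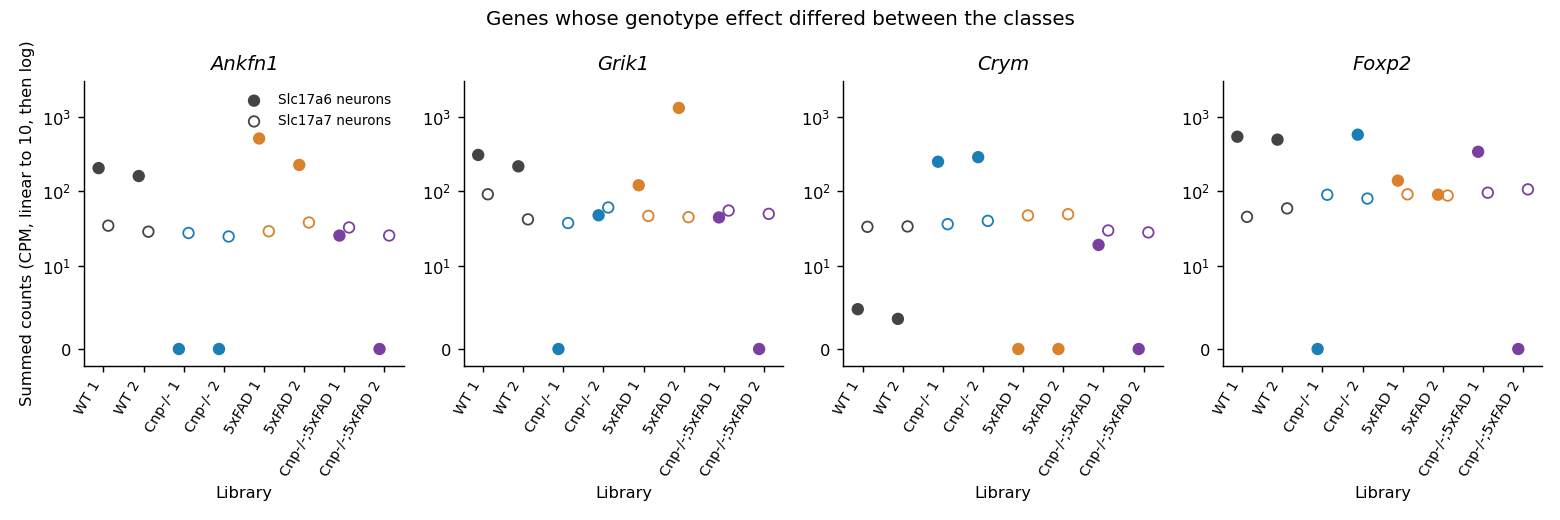
Summed level (CPM, linear to 10 and logarithmic above) of Ankfn1, Grik1, Crym and Foxp2 in each library, in Slc17a6 neurons (filled) and Slc17a7 neurons (open). Ankfn1 is at 0 in 3 of the 4 libraries without Cnp while Slc17a7 neurons stay at 24.8 to 38.3 CPM, and the libraries at 0 hold 1 to 3 Slc17a6 neurons.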

How the data were processed

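The authors isolated nuclei on iodixanol gradients and made 10x 3′ libraries. Per the labels and methods, reads were aligned to mm10 with Cell Ranger 6.1.2, ambient transcripts were removed with CellBender, and nuclei were filtered, clustered and named in Seurat. How doublets were treated and whether intronic reads were counted are not given in the sources used here. The deposited table holds raw UMI counts per gene and nucleus, and a second table holds the cell type, cluster, UMI counts and percent mitochondrial UMIs that the authors gave each nucleus.

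Cell types and cluster numbers were used as deposited. No further doublet caller was run. Counts were summed per library and class, divided by all UMIs of the class for CPM, and tested with edgeR 4.0.16 in R 4.3.3 (filterByExpr, TMM, quasi-likelihood, two-sided, Benjamini-Hochberg over all genes tested, threshold 0.05), with one mean per genotype, or, for the difference from Slc17a7 neurons, with the library as a block. The script was tested on simulated counts with 200 changed genes. DESeq2 1.42.0 was an alternative. Shares were compared over libraries by exact permutation in Python 3.11.15 (scipy 1.17.1). p-values of the shares and of the genotype contrasts measure the spread between libraries, which the labels do not tie to single animals. In the fit against Slc17a7 neurons the p-values rest on a spread shared over genes, and the replicates of a single gene hardly entered. Grik1, at 121 and 1309 CPM in the 5xFAD replicates, was therefore still called. Coordinates are from GENCODE on GRCm38.

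Named genes were the transporter, Gad, Cnp and Tcf7l2 genes, any member of the marker and functional lists, the 12 highest and 12 lowest against Slc17a7 neurons (at 50 CPM or more, same sign in 8 libraries, 0.5 added to counts), and up to 10 called genes per direction or, where fewer than 3 passed, the 5 of smallest p. Members, rule and lists were chosen with earlier results of these data known. Deviations of same-numbered replicates from their genotype mean were correlated between genotypes. The correlations were -0.0352 to 0.0535 in Slc17a6 neurons, where libraries of 1 to 3 nuclei could show little. In Slc17a7 neurons they were -0.43 to 0.333, so some same-numbered libraries deviated together and others in opposite directions. The numbers were not used as pairs. Tables holding only microglia and macrophages were not used here. Some genes of the lists are not reported here by name.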

Additional observations from a re-analysis of the deposited data

Results flagged for a closer look

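Each result here is a gene whose genotype effect in Slc17a6 neurons differed from that in Slc17a7 neurons of the same libraries by a test of the difference itself (edgeR, library as a block, adjusted over 16339 genes). None of the Cnp-/- Slc17a6 neurons lay in cluster 11, which held most of those in WT. A change of transcripts with genotype and a different mix of nuclei therefore cannot be told apart here. For Cnp loss the log2 differences were -4.226 for Ankfn1, -3.309 for Grik1, 5.267 for Crym, -13.43 for Bnc2, 12.57 for Gm42707, -2.603 for Plcb4, -12.63 for Sdc2, -2.666 for Sox2ot and -2.507 for Btbd11. For 5xFAD they were -4.76 for 9530026P05Rik, 2.856 for Zfp521 and -1.9 for Foxp2.

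The size of the differences for Bnc2, Gm42707 and Sdc2 has no use as a fold, because these genes were at 0 in all Slc17a6 neurons with Cnp or in all without it. Ankfn1, Btbd11 and Zfp521 were at 0 in both Cnp-/- libraries, and Crym and 9530026P05Rik in both 5xFAD libraries, so the size of their differences also depends on how the fit treats 0 and is no fold. Bnc2 was at 62.4 and 105 CPM in WT and 408 CPM in 5xFAD replicate 1 and at 0 elsewhere. Sdc2, a syndecan of the cell surface, was at 65.6 and 70.6 CPM in WT, 102 and 90.3 CPM in 5xFAD and at 0 in the 4 libraries without Cnp. Sox2ot was at 70.4 and 113 CPM in WT, 125 and 0 in Cnp-/-, 241 and 361 in 5xFAD, and 38.4 and 0 in Cnp-/-;5xFAD. Btbd11 was at 94.4 and 153 CPM in WT, 0 and 0 in Cnp-/-, 315 and 271 in 5xFAD, and 44.7 and 0 in Cnp-/-;5xFAD. Of these 4 genes, the libraries at 0 hold 1 to 3 Slc17a6 neurons or, for Bnc2 and Sdc2, also the 12 of Cnp-/-;5xFAD replicate 1. Gm42707 was at 0 in every library but Cnp-/- replicate 2, the 51 and 137 nuclei of WT among them. Leaving out each library in turn, Ankfn1, Grik1, Crym and 9530026P05Rik kept their call in 7 of 8 fits, Bnc2, Gm42707 and Zfp521 in 6, Plcb4 in 5, Foxp2 in 4, Sdc2 and Sox2ot in 2 and Btbd11 in 0.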

How the results depend on the processing

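The number of called genes moved with the set of nuclei and the fit, while few nuclei outside WT and 2 libraries per genotype limit every comparison here. For Cnp loss (0 called) the count was 1 with DESeq2 size factors, 15 without a filter on low counts, 8 with DESeq2, 1 with at least 2 Slc17a6 UMIs and 189 with at least 1, and 0 to 41 leaving out single libraries. For 5xFAD (0) it was 1 without the filter and 0 to 12 leaving out single libraries. For the interaction (0) it was 61 with at least 1 UMI and 0 to 17 leaving out single libraries. For the difference in Cnp effect (9) it was 2 with at least 5 Slc17a6 UMIs, 106 with at least 2, 51 in Tcf7l2 nuclei only, 5 with at least 1 UMI, 0 in cluster 11, 42 with DESeq2 size factors, 0 without the library block, 5 against Gad neurons, and 4 to 53 leaving out single libraries. For the difference in 5xFAD effect (3) it was 0, 34, 36, 0, 0, 10, 0 and 11 under the same settings, 12 without cluster 25, and 0 to 7 leaving out single libraries. With at least 5 Slc17a6 UMIs and in Tcf7l2 nuclei only, Cnp-/-;5xFAD replicate 1 was the only library without Cnp. The counts of both differences under these settings therefore hold no spread between libraries without Cnp, and no conclusion is drawn from them. The cause of the other changes in count was not tested.

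The share of Slc17a6 neurons kept its direction under all settings run and did not pass the test in any, which with 8 libraries says nothing of its stability, with differences of -1.09 to -0.288 points by Cnp and -0.976 to -0.159 points by 5xFAD leaving out single libraries. The share of Tcf7l2 nuclei by Cnp turned to 27.3 points with at least 5 Slc17a6 UMIs, where both Cnp-/- libraries and Cnp-/-;5xFAD replicate 2 had 0 nuclei and the libraries without Cnp held 3, all in Cnp-/-;5xFAD replicate 1, and was -32.9 to -6.30 leaving out single libraries. By 5xFAD it was -21.2 to 5.36, turning to 5.36 without WT replicate 1, 0.752 without WT replicate 2, and 0.976 without 5xFAD replicate 2 or without Cnp-/-;5xFAD replicate 2.

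Log2 values that turned direction were, with all nuclei of cluster 11, Ankfn1 for Cnp loss (0.1547) and, for the difference in effect, Ankfn1 (0.2959), Grik1 (0.07667), Bnc2 (0.1343), Sox2ot (0.4369), Crym (-0.0832), Sdc2 (0.00502), Gm42707 (-0.3089) and 9530026P05Rik (0.5932), and Cadps2 (0.2776), Cntnap5c (-0.1155) and Zfp804a (-0.6777) in the genotype contrasts. In Tcf7l2 nuclei only, Grik1 (11.43), Bnc2 (0.8077), Sox2ot (0.3921), Btbd11 (0.2468) and Gm42707 (-0.1414) turned. In that set Cnp loss rested on Cnp-/-;5xFAD replicate 1 alone, so these turns say little. With at least 1 or 2 Slc17a6 UMIs, Cadps2 (0.1573 and 0.1103), Cntnap5c (-0.2298 with at least 1) and Gria4 (-0.06901 with at least 2) turned. Gm42707 turned with at least 5 UMIs (-0.2815), where Cnp-/-;5xFAD replicate 1 was again the only library without Cnp. Its difference ranged from -0.3058 (without Cnp-/- replicate 2) to 13.71 leaving out single libraries.

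With the replicate number as a block, the 3 contrasts called 0, 0 and 0 genes. With 1 nucleus drawn from each library, 132 genes could be tested and 0 were called. Genotype contrasts with at least 5 UMIs or in Tcf7l2 nuclei only could not be fitted, because genotypes had no nuclei left. Settings with cluster 11, without cluster 25 or with at least 1 UMI were chosen after seeing the data.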
